A study of Mus musculus with 6 samples.

Results

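Olfactory receptor genes (Olfr), vomeronasal receptor genes (Vmn1r and Vmn2r) and trace amine-associated receptor genes (Taar) were examined in RNA sequencing of mouse embryonic stem cells after knockdown of Ehmt2. A receptor gene was taken as detected where its symbol belonged to one of these families and its mean normalized count over all libraries was above 0. Of 1500 receptor symbols in the table, 213 were detected, or 14.2%, and 1287 were at 0 in every library. Of all 25239 symbols listed, 20461 or 81.1% were detected. The genes were thus chosen by their mean normalized count, and their levels are given below as a description.

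The cells were E14, a mouse embryonic stem cell line, grown in N2B27 medium with LIF and 2i. They were transfected either with a control siRNA or with an siRNA against Ehmt2 (also called G9a, a methyltransferase that places H3K9me2), in both cases 2 µl of a 40 µM stock, and collection followed at 3 days. Libraries of polyA-enriched RNA numbered 3 per group, and the genotype label is WT in the control group and EHMT2 knockdown in the other. The labels do not say whether replicates came from separate cultures, so the p-values measure only the spread between these samples.

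Odorant receptors are G protein-coupled receptors that sit in the cilia of olfactory sensory neurons, and each such neuron expresses 1 allele of 1 receptor gene. Vmn1r and Vmn2r receptors detect pheromones in sensory neurons of the vomeronasal organ, and Taar receptors detect amines. In mouse olfactory neurons the unchosen receptor clusters are kept silent by heterochromatin marked by H3K9 and H4K20 methylation, and the enzymes G9a and GLP (Ehmt1) take part in this silencing.

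The windows below show the DNA around the annotated starts of 3 receptor genes that passed the test (Olfr701, Olfr287 and Vmn2r3) and of the receptor with the highest mean, which did not pass (Olfr985). Each runs from 250 bases before an annotated start to 50 after it, from RefSeq GRCm38.p6, 5′ to 3′ on the strand of the gene. For Vmn2r3 that start lies a few bases inside the gene span given below. Capitals mark CpG dinucleotides. The positions are chr7:106813879-106814178 on the plus strand for Olfr701, chr15:98221007-98221306 on the minus strand for Olfr287, chr3:64287368-64287667 on the minus strand for Vmn2r3 and chr9:40127990-40128289 on the minus strand for Olfr985.
Olfr701: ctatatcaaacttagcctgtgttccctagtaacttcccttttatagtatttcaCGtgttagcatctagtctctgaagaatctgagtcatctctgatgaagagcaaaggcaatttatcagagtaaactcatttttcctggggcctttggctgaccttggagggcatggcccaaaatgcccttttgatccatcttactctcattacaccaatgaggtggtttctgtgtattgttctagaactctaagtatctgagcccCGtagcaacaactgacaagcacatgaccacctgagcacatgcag
Olfr287: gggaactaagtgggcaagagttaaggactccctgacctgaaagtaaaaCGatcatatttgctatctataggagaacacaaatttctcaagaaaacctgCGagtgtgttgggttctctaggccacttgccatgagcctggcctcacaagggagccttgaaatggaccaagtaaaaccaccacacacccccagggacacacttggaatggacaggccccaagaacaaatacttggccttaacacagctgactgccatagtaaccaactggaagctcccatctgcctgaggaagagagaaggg
Vmn2r3: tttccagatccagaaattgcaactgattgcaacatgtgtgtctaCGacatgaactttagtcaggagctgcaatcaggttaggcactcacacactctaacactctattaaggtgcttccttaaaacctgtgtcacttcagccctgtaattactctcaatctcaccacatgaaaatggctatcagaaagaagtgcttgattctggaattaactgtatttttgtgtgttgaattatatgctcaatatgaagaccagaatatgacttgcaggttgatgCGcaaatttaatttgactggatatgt
Olfr985: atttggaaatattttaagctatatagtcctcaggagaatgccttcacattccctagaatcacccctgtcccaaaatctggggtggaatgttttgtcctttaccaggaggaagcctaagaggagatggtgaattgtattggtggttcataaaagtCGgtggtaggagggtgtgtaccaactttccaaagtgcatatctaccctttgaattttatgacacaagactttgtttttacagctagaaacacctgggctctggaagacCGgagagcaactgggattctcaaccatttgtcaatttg
Each of these 4 windows held 2 CpG dinucleotides, and those of Olfr1494 and Olfr697, the other receptors that passed, held 1 and 0. Both strands were searched for short motifs. TATAAA, the core of a TATA box, was found in the window of Olfr701 only on the strand opposite to the gene, and TAATTA was found in that of Vmn2r3. Over 182 windows of 180 detected receptors the median was 1 CpG, as it was over 1278 windows of all receptor symbols, against 7 over 32851 promoter windows of all genes. TATAAA was found in 35.2% of windows of detected receptors, in 39.7% of all receptor windows and in 13.6% of all promoters. TAATTA, the core that homeodomain proteins such as Lhx2 bind, was found in 14.3%, 16.6% and 5.29% of the same sets. The core of the Ebf motif was found in 1.65%, 0.391% and 0.904%. Many receptor annotations in RefSeq cover little more than the coding exon, so such a window need not be the promoter in use.

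The deposited table held no values per library, but its means are sums of whole reads divided by size factors. Genes with a single read gave the value of 1 read in each library, 3 for Ehmt2 siRNA and 3 for control siRNA, and from these the reads of each receptor in each library were recovered with exactly 1 solution. The libraries are listed from the largest to the smallest size factor within a group, which is 1.25, 0.952 and 0.952 for Ehmt2 siRNA and 1.05, 1.01 and 0.845 for control siRNA. Which of them is which replicate number is not known. The log2 fold change and the p-value come from the authors' deposited table, the 95% interval was derived from both, and the adjusted p was computed from those p-values after Benjamini and Hochberg, over the 20461 tested genes. A gene passed at an adjusted p below 0.05. A log2 fold change above 0 is higher in Ehmt2 siRNA.

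Ehmt2 was the target, with a mean normalized count of 6426. In the authors' deposited table its log2 fold change was -1.53 (95% interval -1.76 to -1.29, adjusted p 2.87e-33 by Benjamini-Hochberg), or 34.7% of the control level. The header does not name the numerator, so the direction was read from this fall and Ehmt2 cannot check the labels independently. Ehmt1, which encodes the partner GLP, had a log2 fold change of -0.05 per the authors' deposited table and did not pass. The stem cell identity of the cells was visible in its markers, of which all 10 were tested and none passed, with mean normalized counts of 2908 to 122043.

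Most detected receptors rested on very few reads. Together the 213 receptors held 3483 reads, of which the 10 with the highest means held 62.2%. The median receptor had a mean normalized count of 0.350, against 354 for all tested genes. A read was seen in 1 library only for 98 receptors, in at least 2 libraries for 115 and in all 6 for 24. By family, 172 of 1132 Olfr symbols (15.2%), 18 of 230 Vmn1r symbols (7.83%), 22 of 123 Vmn2r symbols (17.9%) and 1 of 15 Taar symbols (6.67%) were detected. Taar4, the single Taar gene detected, had 1 read in 1 Ehmt2 siRNA library.

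Detection differed with the length of the annotated gene. Of the Olfr genes whose RefSeq span was over 1100 bases, 54 of 211 (25.6%) were detected, against 117 of 912 (12.8%) with a shorter span. In other families of tissue-restricted genes, 7 of 38 taste receptor symbols (18.4%), 17 of 43 beta-defensin symbols (39.5%) and 2 of 54 keratin-associated protein symbols (3.70%) were detected.

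Each Ehmt2 siRNA library had reads from more receptors than each control library. At least 1 read was found for 110, 108 and 103 receptors in the Ehmt2 siRNA libraries and for 66, 71 and 64 in the control libraries. The size factors of the libraries in the same order were 1.25, 0.952 and 0.952 against 1.05, 1.01 and 0.845, and the part of sequencing depth in these counts was not tested. A receptor seen only on 1 side was bound to differ between the groups by the way it was detected, and 94 had reads only in Ehmt2 siRNA and 35 only in control. Among the 5112 other genes with a mean under 10, 923 had reads only in Ehmt2 siRNA and 533 only in control.

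Of the 213 receptors, 5 rose (2.35%) and 0 fell, where 5.45% of all tested genes rose and 4.82% fell. All 5 stand above the diagonal in the plot of the mean of each receptor in the 2 groups. At an unadjusted p under 0.05, 13 receptors were higher and 0 lower, where 6.86% of tested genes with a mean under 80 were higher and 3.62% lower. The share that passed depends on the level of a gene. Among genes with a mean under 10, where 203 of the receptors lie, 0.941% of tested genes rose and 0.0376% fell, and 3 of those 203 receptors rose (1.48%). Among genes with a mean from 10 to under 80, where the other 10 receptors lie, 8.53% rose and 3.36% fell, and 2 of the 10 receptors rose.

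**Figure D1:**
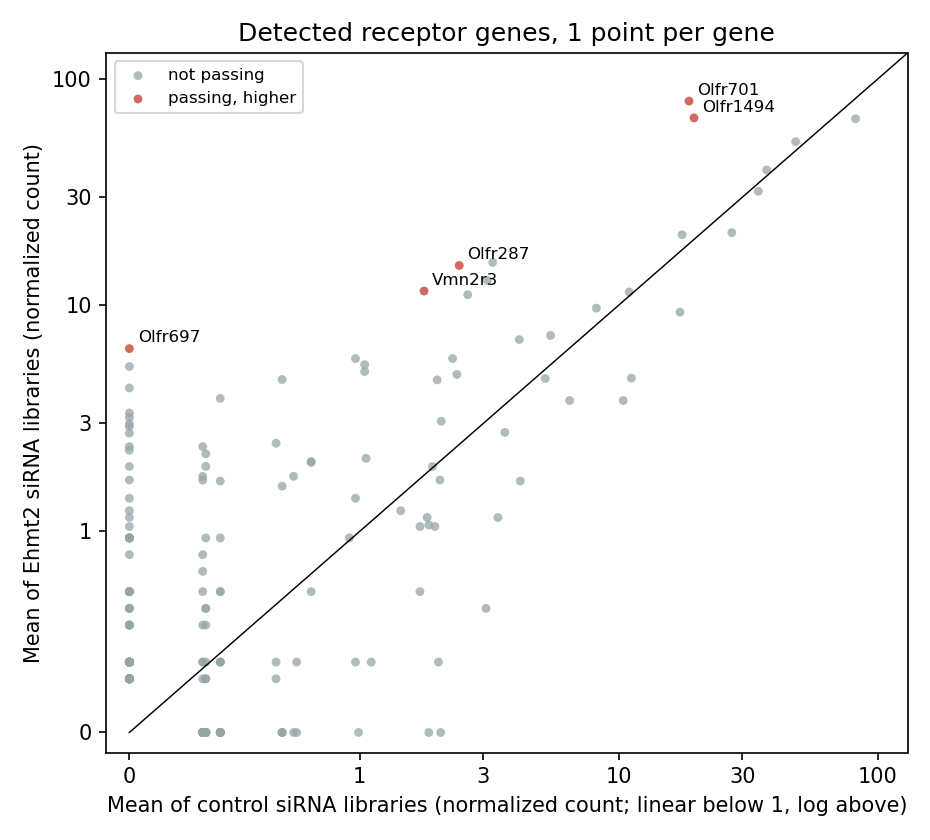
Each point is 1 of the 213 detected receptor genes, at the mean normalized count of the 3 control siRNA libraries (x axis) and of the 3 Ehmt2 siRNA libraries (y axis), both linear below 1 and logarithmic above. Points above the diagonal are higher in Ehmt2 siRNA. The 5 genes that passed are marked and all lie above it, while Olfr985 at the upper right, with 66.6 against 82.0, lies below it.

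Olfr1494, an odorant receptor gene on chromosome 19 (chr19:13749108-13750055), had 85, 67 and 60 reads in the Ehmt2 siRNA libraries and 20, 17 and 19 in the control libraries. The lowest Ehmt2 siRNA library thus stood well above the highest control library, and the groups did not overlap. The normalized count was 67.2 ± 3.75 against 19.5 ± 2.81 (SD, n = 3 each). In the authors' deposited table the log2 fold change was 1.79 (95% interval 1.15 to 2.43, Benjamini-Hochberg adjusted p 2.79e-06).

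Olfr701, an odorant receptor gene on chromosome 7 (chr7:106814129-106820709), had 90, 57 and 102 reads in the Ehmt2 siRNA libraries and 27, 22 and 7 in the control libraries. The groups did not overlap, although the libraries of each group differed among themselves by more than for Olfr1494. The normalized count was 79.7 ± 24.6 against 18.7 ± 9.19 (SD, n = 3 each). In the authors' deposited table the log2 fold change was 2.08 (95% interval 1.21 to 2.95, Benjamini-Hochberg adjusted p 0.00011).

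The other 3 genes that rose had far fewer reads. Olfr287 (chr15:98202311-98221056) had 18, 15 and 14 reads against 2, 3 and 2. Its groups did not overlap and the normalized count was even within each group, at 14.96 ± 0.702 against 2.42 ± 0.539 (SD, n = 3 each). In the authors' deposited table its log2 fold change was 2.63 (95% interval 1.08 to 4.17, Benjamini-Hochberg adjusted p 0.0127).

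Olfr697 (chr7:106740905-106741956), which lies near Olfr701, had 7, 6 and 7 reads in the Ehmt2 siRNA libraries and none in the control libraries. Every Ehmt2 siRNA library had reads and no control library did, so the gene could not be lower. Against the limit of 3 reads over the group that a count of 0 allows, the level in Ehmt2 siRNA was at least 6.13-fold higher (Benjamini-Hochberg adjusted p 0.0201 from the authors' deposited table).

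Vmn2r3 (chr3:64258961-64287426) is the 1 vomeronasal receptor that rose. It belongs to a small subgroup of Vmn2r receptors that vomeronasal neurons co-express with other Vmn2r receptors. It had 17, 11 and 9 reads in the Ehmt2 siRNA libraries and 1, 2 and 2 in the control libraries, and the groups did not overlap. In the authors' deposited table its log2 fold change was 2.73 (95% interval 0.92 to 4.55, Benjamini-Hochberg adjusted p 0.0352).

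Of these 5 genes, Olfr1494 and Olfr701 alone passed with Benjamini-Yekutieli adjustment or at a threshold of 0.01, and Vmn2r3 did not pass after removal of the trend on GC content (adjusted p 0.0578, from the p-values of the authors' deposited table).

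Just short of the threshold stood Olfr376, with 3, 10 and 3 reads against none (adjusted p 0.0715 by Benjamini-Hochberg from the authors' deposited table). Its observed level was 4.90-fold higher than the limit of 3 reads, and the lower end of its counting interval was 3.54. Seen only in Ehmt2 siRNA, it could not be lower. Olfr1491, on chromosome 19 near Olfr1494, had 29, 15 and 7 reads against 3, 1 and 5 (adjusted p 0.0740 by Benjamini-Hochberg from the authors' deposited table). Neither overlapped between the groups. The log2 ratio of Olfr1491 was 2.24 and ranged from 1.81 to 3.00 when 1 library was left out. It was highest without the control library of 5 reads.

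The other 8 of the 15 receptors with the smallest p-values, none of which passed, leaned the same way. They were picked by p-value from this comparison, so a gap between their groups follows largely from that choice. Olfr293 had 3, 3 and 7 reads against none, Olfr20 had 2, 4 and 4 against none, and Olfr703 had 3, 3 and 3 against none. These genes were seen only in Ehmt2 siRNA and so could not be lower. Their observed levels were 3.98-fold, 3.06-fold and 2.76-fold higher than the limit of 3 reads. The lower ends of their counting intervals were 2.80, 2.06 and 1.81. Olfr702 had 14, 7 and 19 reads against 5, 1 and 3, and Olfr510 had 18, 9 and 9 against 2, 0 and 5. The log2 ratio of Olfr510 was 2.09 and ranged from 1.50 to 3.54 when 1 library was left out, highest without the control library of 5 reads. In none of these 5 did the groups overlap. Among receptors with a mean under 10, all Ehmt2 siRNA libraries lay above all control libraries for 12.8%, against 8.79% of tested genes at that level.

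Of the remaining 3, Olfr503 had 4, 5 and 3 reads against 0, 0 and 1, a ratio of 9.80 with a counting interval of 1.63 to 471. Vmn2r84 had 6, 8 and 4 reads against 1, 2 and 0, a ratio of 5.91 (1.61 to 29.2), and its log2 ratio of 2.56 ranged from 1.98 to 3.60 when 1 library was left out. Vmn2r2 had 8, 1 and 2 reads against none and so could not be lower. Its observed level was 3.37-fold higher than the limit of 3 reads. These intervals are exact 95% intervals for the ratio of reads and cover counting error only. Vmn2r2 overlaps Vmn2r1 in the annotation, and no source used here says whether counting used the strand, so reads of the pair may not be told apart.

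**Figure D2:**
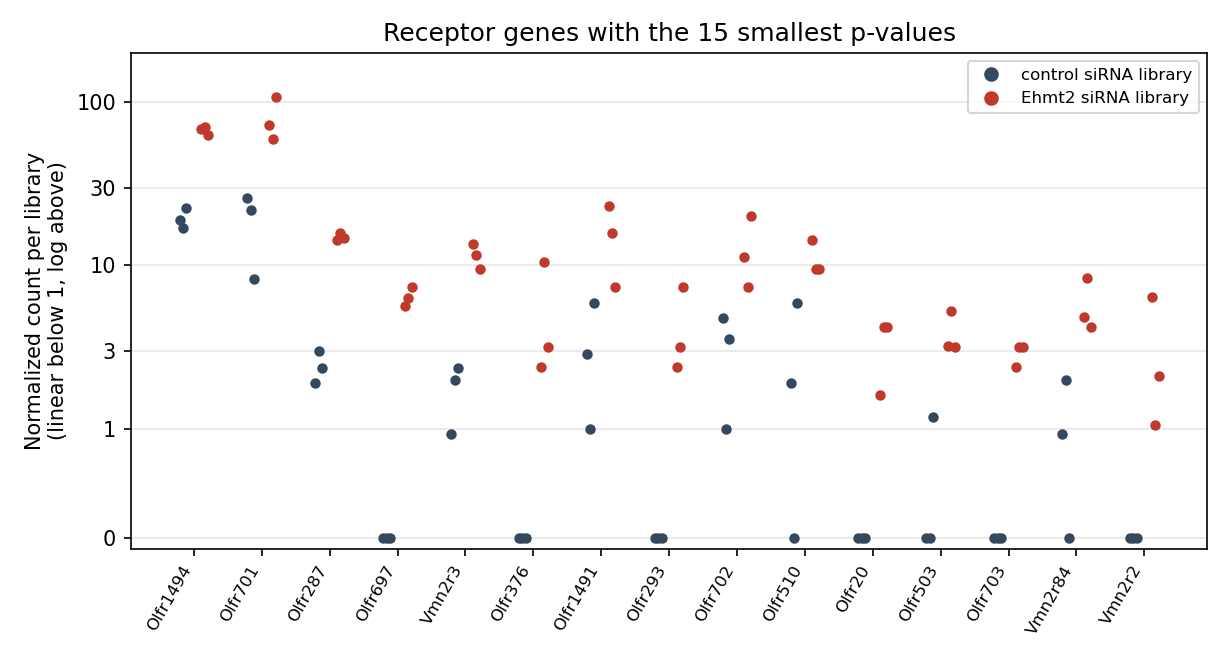
The 15 receptor genes with the smallest p-values (x axis, in that order) with the normalized count of each library (y axis, linear below 1, logarithmic above), 1 point per library and 3 libraries per group. In every gene the Ehmt2 siRNA libraries lie above the control libraries, and the control libraries of Olfr697, Olfr376, Olfr293, Olfr20, Olfr703 and Vmn2r2 lie at 0. Genes at 0 in control could not be lower, and all 15 were picked by p-value.

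Of the receptors that did not pass, 71 leaned the other way. Olfr1564 on chromosome 17 had 5, 4 and 3 reads in Ehmt2 siRNA and 15, 11 and 5 in control, so the groups did not overlap after division by size factors. In the authors' deposited table its log2 fold change was -1.47 (Benjamini-Hochberg adjusted p 0.297). Olfr90 had 6, 3 and 6 reads against 14, 6 and 12. Vmn2r1, the Vmn2r gene with the most reads, had 6, 12 and 10 reads against 26, 21 and 5, and its groups overlapped.

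Over all receptors with a mean under 10, the 3 Ehmt2 siRNA libraries lay above all control libraries for 26 of 203 (12.8%), where 8.79% of all tested genes at that level did. The control libraries lay above all Ehmt2 siRNA libraries for 4 of 203 (1.97%), where 3.69% of genes did. The 4 were Olfr1564, Olfr31, Olfr920 and Vmn2r18.

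The other 8 receptors with a mean of at least 10 did not pass. Olfr985 had 117, 50 and 51 reads against 85, 62 and 87, and its groups overlapped. Its log2 fold change by the authors' deposited table was -0.29 (95% interval -0.95 to 0.38, Benjamini-Hochberg adjusted p 0.807), so a rise as large as that of Olfr701 lies outside its interval.

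Olfr153 had 65, 44 and 57 reads against 64, 42 and 35, and its log2 fold change by the authors' deposited table was 0.13 (95% interval -0.48 to 0.74). Olfr986, the neighbour of Olfr985, had 38, 38 and 46 reads against 49, 33 and 27. Vmn1r53, the vomeronasal receptor with the most reads, had 30, 45 and 23 reads against 36, 47 and 19. In each of the 3 the groups overlapped.

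In the rest of these receptors the groups overlapped too. The pseudogene symbols Olfr1372-ps1 and Olfr856-ps1 had 14, 18 and 31 reads against 27, 29 and 23, and 15, 26 and 21 against 25, 17 and 10. Vmn2r57 had 10, 13 and 12 reads against 12, 12 and 8. Per kilobase of the longest GENCODE M21 transcript, the mean normalized count was highest for Olfr153 (40.1), Olfr985 (39.5), Vmn1r53 (29.6), Olfr1494 (20.6), Olfr856-ps1 (20.0), Olfr701 (11.99) and Olfr986 (11.01). The median receptor stood at 0.128 per kilobase.

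The normalized counts of all 213 receptors summed to 658, 659 and 732 in the Ehmt2 siRNA libraries and to 493, 460 and 424 in the control libraries. The means were 683 ± 42.3 and 459 ± 34.6 (SD, n = 3 each), a ratio of 1.49, and the groups did not overlap. Without the 5 genes that rose, the ratio was 1.21 and the groups still did not overlap, at 485, 496 and 531 against 445, 416 and 388. No test was made on these sums, since the receptors were chosen with results of these data known.

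Receptors with a mean under 10 summed to 284 ± 13.8 in Ehmt2 siRNA and 146 ± 11.6 in control (SD, n = 3 each), a ratio of 1.95. All other genes with a mean under 10 summed to 13498 ± 930 and 11673 ± 1341 (SD, n = 3 each), a ratio of 1.16, with the groups overlapping. By reads per gene, the receptor ratio was 1.99 for genes with 1 read, 1.83 for 2 to 5 reads and 2.23 for 6 to 20 reads. In the other genes under a mean of 10 it was 1.28, 1.31 and 1.22 at the same reads per gene. Bulk RNA cannot tell more cells with a receptor transcript from more RNA per cell.

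**Figure D3:**
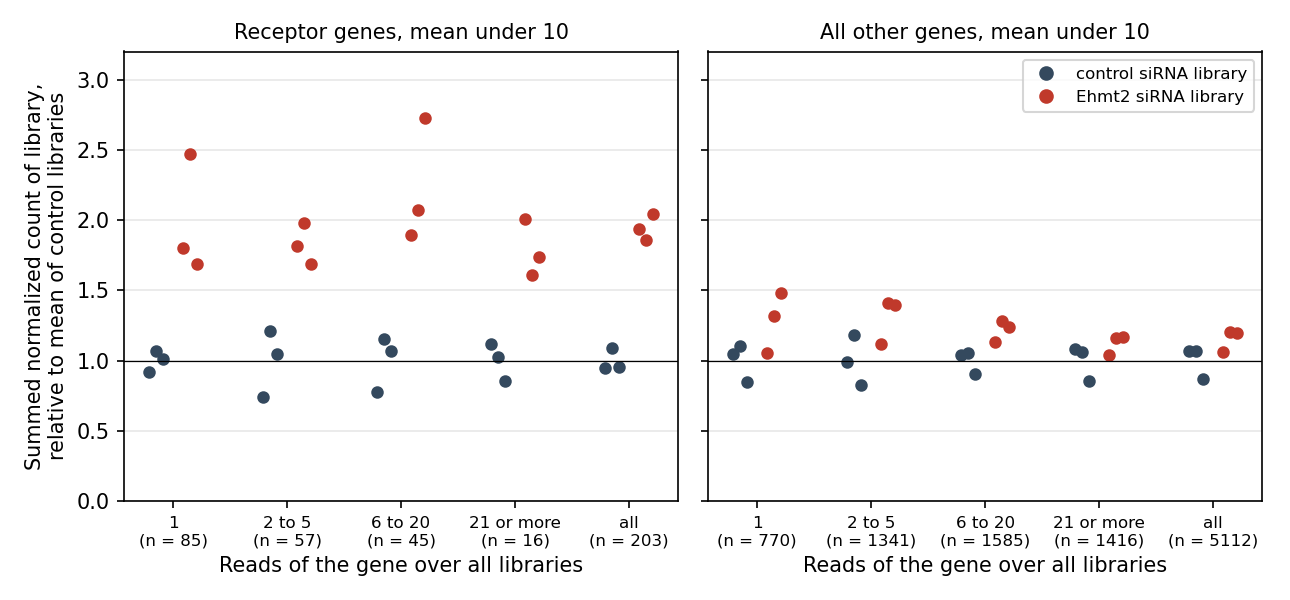
Summed normalized count of each library, divided by the mean of the 3 control libraries (y axis, starting at 0), for receptor genes (left) and all other genes (right) with a mean under 10, split by the reads of a gene over all libraries (x axis, n is the number of genes). Each point is 1 library. In the receptor panel every Ehmt2 siRNA library lies above every control library in each class, and over all 203 receptors the ratio of the group means is 1.95, against 1.16 over the other 5112 genes.

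By family, Olfr genes summed to 547, 520 and 623 in Ehmt2 siRNA and 384, 342 and 352 in control, a ratio of 1.57 with no overlap between the groups. Vmn2r genes summed to 68.9, 80.9 and 66.2 against 63.0, 59.7 and 43.8, a ratio of 1.30, and did not overlap either. Vmn1r genes summed to 42.5, 58.8 and 42.0 against 45.9, 57.7 and 28.4, a ratio of 1.09, and overlapped. Most Vmn1r reads belong to Vmn1r53, and none of the 18 detected Vmn1r genes passed. The difference between families was not tested.

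By direction alone, 142 of 213 receptors (66.7%) were higher in Ehmt2 siRNA, where 51.1% of all tested genes and 55.9% of those with a mean under 10 were. This count includes the receptors seen on 1 side only. Among the 84 receptors with reads on both sides, 48 were higher (57.1%) and 36 lower, with a median log2 fold change of 0.35 in the authors' deposited table. Of these, 74 had a mean under 10, and 42 of the 74 were higher (56.8%), with a median of 0.56. Among other genes with a mean under 10 and reads on both sides, 1912 of 3656 were higher (52.3%), with a median of 0.06. Of the 85 receptors with a single read, 58 (68.2%) had it on the Ehmt2 siRNA side, against 444 of 770 other genes (57.7%).

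Of 212 detected receptors with a RefSeq position, 128 had a detected receptor as the next receptor gene on one side or the other, and 48 of 71 clusters (receptors within 1 Mb of each other) held at least 1. The longest run of consecutive detected receptors lay on chromosome 7 from Olfr695 to Olfr705 (chr7:106713732-106874243) and held 10 genes, Olfr697 and Olfr701 among them. All 10 were higher in Ehmt2 siRNA, but Olfr697, Olfr700, Olfr703, Olfr704 and Olfr705 had reads only there and so could not be lower. The summed normalized counts of the run were 96.1, 88.2 and 153 against 33.4, 25.9 and 13.0, a ratio of 4.67.

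Within that run Olfr698 had 2, 7 and 6 reads against 1, 1 and 1, and Olfr699 had 0, 2 and 5 against 2, 0 and 0. Olfr695 had 2, 1 and 2 reads against 0, 2 and 0, and Olfr700 had 1, 0 and 2 against none. Olfr704 and Olfr705 had 1 read each. Olfr701 held most of the reads of the run, and its neighbours Olfr697, Olfr702 and Olfr703 showed the same direction on fewer reads.

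The run on chromosome 19 from Olfr1484 to Olfr1495 (chr19:13585306-13769303) held 7 genes, of which 6 were higher, Olfr1484 and Olfr1487 on 1 read each in Ehmt2 siRNA alone. Its summed normalized counts were 100.1, 92.4 and 77.7 against 22.0, 25.9 and 29.6, a ratio of 3.49. Olfr1494 held most of these reads, followed by Olfr1491. Olfr1490 had 2, 1 and 3 reads against 0, 1 and 0, and Olfr1495 had 7, 4 and 4 against 0, 6 and 0.

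Another long run, on chromosome 9 from Olfr981 to Olfr986 (chr9:40022395-40188094), held 6 genes with 345 reads in Ehmt2 siRNA and 354 in control. Its ratio was 0.873 and its groups overlapped. A run of equal length on chromosome 7 from Olfr294 to Vmn2r79 had 26 reads against 3, a ratio of 7.16 (counting interval 2.44 to 41.1). In it Olfr292, Olfr293, Olfr294 and Vmn2r77 had reads only in Ehmt2 siRNA and so could not be lower. Reads from near-identical receptors may be shared between neighbours, depending on how the authors counted them.

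**Figure D4:**
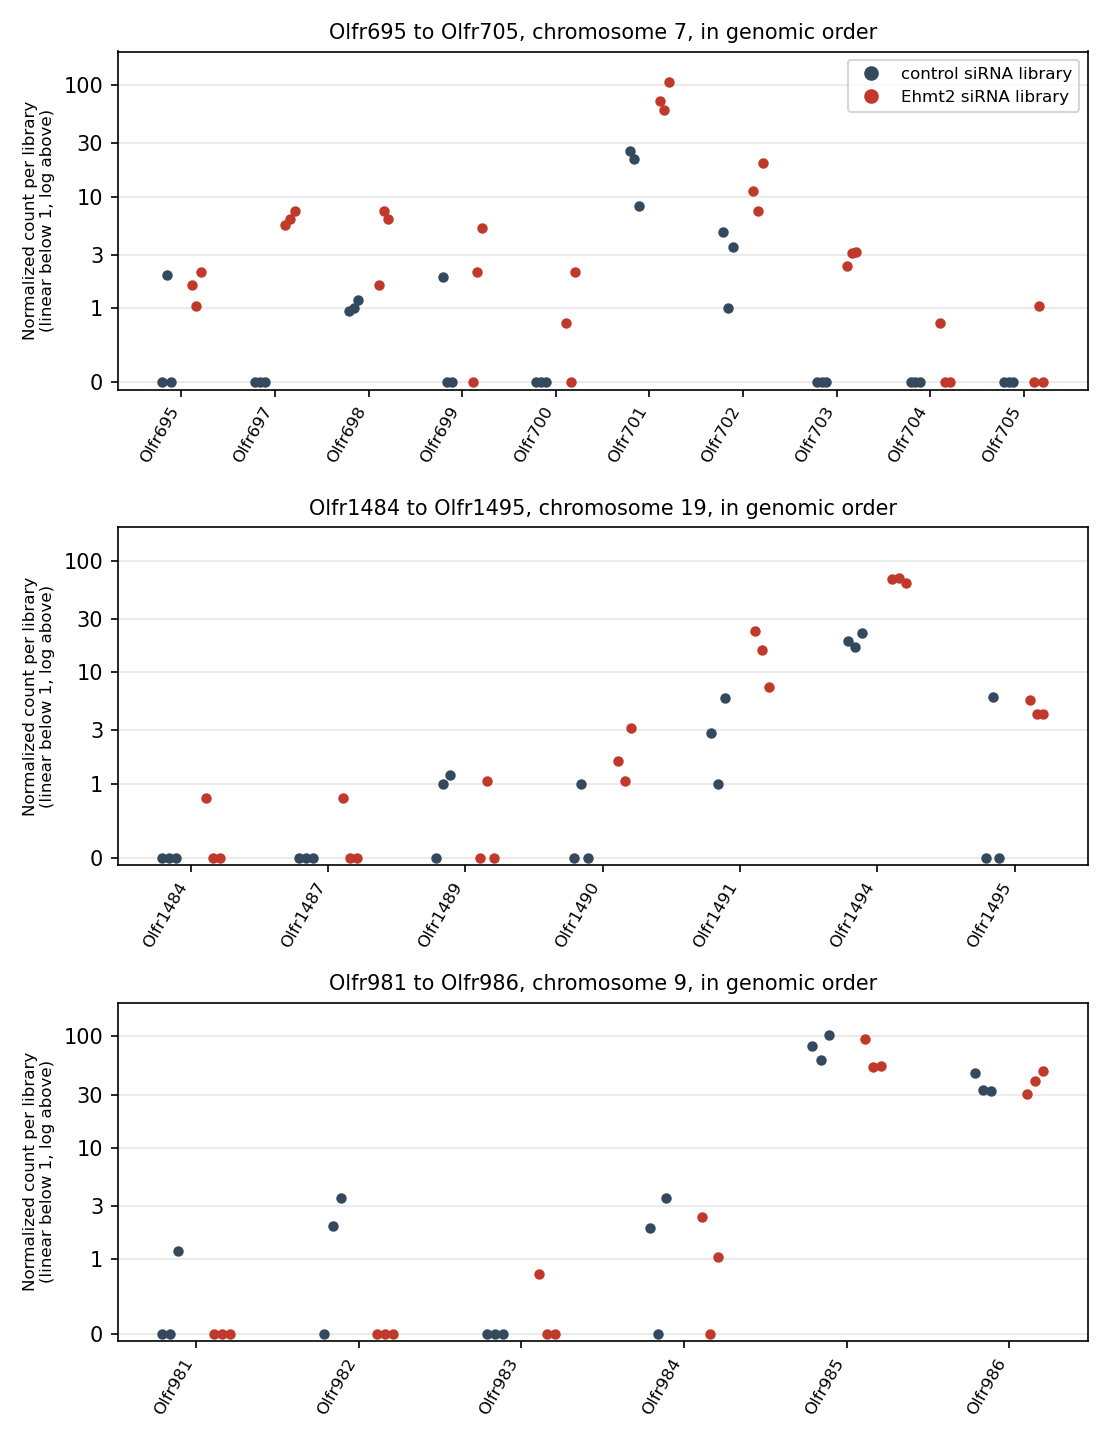
Normalized count per library (y axis, linear below 1, logarithmic above) of each gene in the 3 longest runs of consecutive detected receptors (of 2 runs with 6 genes, the one with more reads), in genomic order (x axis), 1 point per library and 3 libraries per group. In the runs on chromosomes 7 and 19 the Ehmt2 siRNA libraries of Olfr701 and Olfr1494 lie above the control libraries, and in the run on chromosome 9 Olfr985 and Olfr986 overlap between the groups.

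Of the 23 clusters with at least 20 reads, 6 had all Ehmt2 siRNA libraries above all control libraries, and 2 had the reverse. In the rest the groups overlapped. The highest ratios were on chromosome 11 from Olfr20 to Olfr412 (26 reads against 1, ratio 22.0, counting interval 3.92 to 979), on chromosome 7 from Olfr291 to Vmn2r79 (28 reads against 3, ratio 7.78, 2.65 to 44.1) and on chromosome 15 around Olfr287 (ratio 6.43). All 26 Ehmt2 siRNA reads on chromosome 11 came from Olfr20 and Olfr376, which had none in control and so could not be lower. The chromosome 7 cluster from Olfr291 to Vmn2r79 also held genes seen only in Ehmt2 siRNA, Olfr293 among them. The cluster on chromosome 7 from Olfr693 to Olfr519 had a ratio of 4.58 and the cluster on chromosome 19 a ratio of 3.13. The largest cluster, on chromosome 2 from Olfr987 to Olfr1274, had 13 of 225 symbols detected and a ratio of 1.20. The cluster of class I odorant receptors on chromosome 7, from Olfr543 to Olfr692, flanks the beta-globin genes, with 9 of 125 symbols detected and a ratio of 1.11. Clusters below 1 without overlap were chromosome 17 from Olfr55 to Olfr63, which Olfr1564 dominates, at 0.343, and Vmn2r18 on chromosome 5, at 0.586. The other clusters below 1 had ratios from 0.746 to 0.929, and their groups overlapped.

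**Figure D5:**
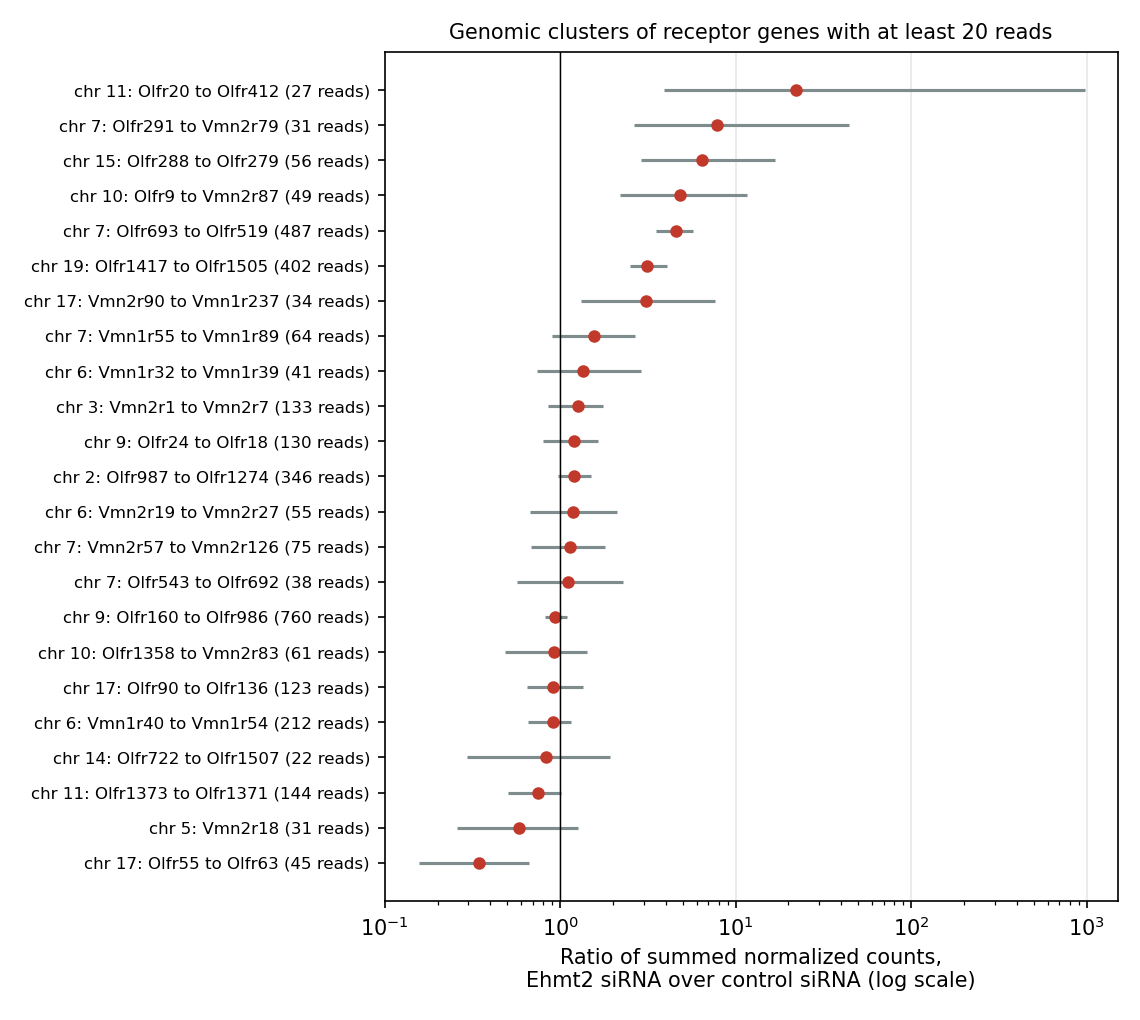
Ratio of summed normalized counts, Ehmt2 siRNA over control siRNA (x axis, log scale), for the 23 genomic clusters of receptor genes with at least 20 reads (y axis). Points are ratios and lines are exact 95% counting intervals, which cover counting error only. The 2 clusters with most reads among those above 1, on chromosome 7 (ratio 4.58) and chromosome 19 (ratio 3.13), lie to the right of 1 with their whole intervals, and the chromosome 9 cluster from Olfr160 to Olfr986 (ratio 0.929) has an interval that spans 1.

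Among the nearest genes with a mean of at least 50 on each side of the 5 receptors that rose, 1 passed. Nlrp14, a gene of the NLR family known from oocytes that lies 293 kb beyond Olfr701, rose with a log2 fold change of 2.09 in the authors' deposited table (95% interval 1.73 to 2.45, Benjamini-Hochberg adjusted p 1.25e-27). Asb8, 36.7 kb from Olfr287, had a log2 fold change of 0.10 in that table and did not pass, and neither did Mrpl17, Kansl2, Zfp91, Tle4, Gmps or Ssr3.

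Of 25 tested genes of the olfactory signalling pathway, 3 rose and 3 fell, with a median log2 fold change of 0.06, against 0.01 over all tested genes. Rtp2, which helps odorant receptors reach the cell surface, rose with a log2 fold change of 1.55 in the authors' deposited table. Ano2, the chloride channel that amplifies the odour response, rose on 11, 5 and 10 reads against 1, 0 and 0, and Car2, a carbonic anhydrase, rose by 0.61 on the log2 scale of the authors' deposited table. Pde4a, Grk3 and Adcy3, which break down cyclic AMP, silence active receptors and make cyclic AMP, fell by 0.68, 0.71 and 0.30 on the log2 scale of the authors' deposited table.

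Of 11 tested markers of olfactory neurons 2 rose and 1 fell, and of 6 tested markers of vomeronasal neurons none passed. Of all tested genes, 5.45% rose and 4.82% fell. Cnga2, the cyclic nucleotide-gated channel of olfactory neurons, and Trpc2, the channel of vomeronasal neurons, were at 0. Rtp1 had 1 read, while Adcy3 and Gnal, which other cells also express, had mean normalized counts of 1660 and 403 in the authors' deposited table. Omp, the marker of mature olfactory neurons, had 108, 71 and 63 reads against 47, 50 and 53 and did not pass (log2 fold change 0.54, Benjamini-Hochberg adjusted p 0.248 from the authors' deposited table). Of 14 tested vomeronasal transduction genes, none passed. Summed normalized counts of 7 olfactory neuron markers with recovered reads ranged from 109 to 184 in Ehmt2 siRNA and 106 to 150 in control, which overlap. Those of 5 vomeronasal neuron markers were 117, 105 and 99.8 against 97.4, 81.6 and 93.5, and did not overlap. Omp held most of the reads of these 5. Among the others Tfap2e, Gng8 and Bcl11b leaned lower, with log2 fold changes of -1.34, -0.27 and -0.09 in the authors' deposited table. Gnao1 leaned higher (0.15 in that table). Summed normalized counts of 10 olfactory transduction genes were 193, 155 and 150.2 against 128, 121 and 127, and did not overlap either. Omp held the most reads of these 10 too. Genes with a mean of at least 80, such as Rtp2, Car2, Pde4a, Grk3 and Adcy3, are not in this sum. The part of these genes in the receptor levels was not tested.

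Of 29 tested regulators of receptor choice and silencing, 2 rose and 3 fell, Ehmt2 itself among them, where 5.45% of all tested genes rose and 4.82% fell. Atf5 and Ddit3, which act in the unfolded protein response, fell by 0.53 and 0.71 on the log2 scale of the authors' deposited table. Kmt5b, an H4K20 methyltransferase, and Meis2, a homeodomain factor, rose by 0.22 and 0.47 on that scale. Lhx2, which binds receptor enhancers, had 71, 65 and 54 reads against 93, 60 and 70 and did not pass, and Emx2 was at 0.

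Of 10 tested markers of a 2-cell-like state, found in rare embryonic stem cells, 9 rose, where 5.45% of all tested genes rose and 4.82% fell. The summed normalized count of 9 such markers with recovered reads was 421, 881 and 862 in Ehmt2 siRNA and 104, 103 and 42.6 in control. The receptor sum in the same libraries was 658, 659 and 732 in Ehmt2 siRNA and 493, 460 and 424 in control. Of 7 tested fibroblast markers 1 rose (Col1a2) and 1 fell (Fbn1), and 5 with recovered reads summed to 85.1 to 124 against 132 to 148. The part of either in the receptor levels was not tested.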

How the data were processed

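RNA of 6 libraries was sequenced, 3 per siRNA group. Reads were handled with FastQC, Trimmomatic 0.36, STAR and DESeq2 on mm10 and GRCm38, per the submitters' processing notes. No source used here gives the read counter, its annotation or its use of strand. The single table that the authors deposited holds, as a signal, each gene's mean over the libraries of reads scaled by size factors (per the file headers). Its deposited log2 fold changes compare the groups, and its deposited p-values carry no adjustment (per the file headers). There were 0 other columns of values per sample.

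Python 3.11.15 with pandas 2.3.3, numpy 2.4.6, scipy 1.17.1 and statsmodels 0.14.6 adjusted these p-values over 20461 genes by Benjamini-Hochberg. This adjustment was run on simulated data, and so was the read recovery at means under 20. The deposited p-values themselves were not checked. Standard errors assume a Wald test. Reads per library were recovered for 6283 genes (mean under 20, or receptors and list genes up to 80; tolerance 2e-13, largest residual 7.1e-14). For 27 receptors with at least 20 reads and reads on both sides, the recovered log2 ratio differed from the deposited log2 fold change by at most 0.06. The total depth of each library is unknown. Intervals and limits cover counting error only, with 3 reads allowed at 0. Folds against that limit take the Ehmt2 siRNA reads as counted.

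Named genes were the receptors that passed, the 15 smallest p-values, the 10 highest means, listed pathway genes that passed, their defining markers and the nearest genes with a mean of at least 50. Other receptors of a run or cluster were named after their values were seen. The receptors and gene lists were chosen with earlier results of these data known. Sequences and positions are RefSeq GRCm38.p6, to which 1490 receptor symbols matched, 212 of them detected.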

Additional observations from a re-analysis of the deposited data

How the results depend on the processing

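The number of receptors that rose went from 5 to 2 with genes of a mean of at least 10 alone (10 receptors are then tested), to 2 with Benjamini-Yekutieli adjustment and to 2 at a threshold of 0.01, and Olfr1494 and Olfr701 were the 2. At a threshold of 0.1 it was 7, and 4 among the genes that the authors list in order of significance. Olfr697, with a mean of 3.21, is not in that part, whose lowest mean is 3.46. No receptor fell under any alternative. The number that rose was 4 after removal of the GC trend, where Vmn2r3 had a Benjamini-Hochberg adjusted p of 0.0578. The number detected was 115 with at least 2 libraries and 68 with a mean of at least 1. The summed ratio of 1.49 became 1.21 without the 5 receptors that rose and 1.95 for receptors with a mean under 10, both chosen after seeing the data. Leaving out each library in turn gave 1.43 to 1.55.

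Without one library the log2 ratio of recovered reads ranged from 1.69 to 1.90 for Olfr1494, 1.74 to 2.40 for Olfr701, 2.48 to 2.81 for Olfr287 and 2.41 to 2.97 for Vmn2r3. Some of the values that did not pass changed sign. Vmn2r57 had -0.081 after removal of the GC trend. Leaving out 1 library gave -0.081 and -0.0096 for Olfr986, 0.048, 0.045 and 0.16 for Vmn1r53, -0.042 for Olfr856-ps1, and -0.088, -0.017 and -0.035 for Vmn2r57. For genes short of the threshold the log2 ratio without 1 library ranged from 1.50 to 3.54 for Olfr510, 1.98 to 3.60 for Vmn2r84 and 1.81 to 3.00 for Olfr1491. Among alternatives with a test, 153 values of single genes kept direction and side of the threshold. No refit of the test without a library could be made, as the table holds no counts per library for all genes. No paired analysis was possible because the table has no values per numbered library. Few reads limit all but the highest receptors.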
